A study of Mus musculus with 1931 samples.

Results

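Among the extraembryonic ectoderm-like (ExE-like) cells of RtL-embryoids, 170 cells had no value above 0 for *Elf5*, *Hand1* and *Plet1*, 3 genes of trophoblast stem cells (TSCs) and the ExE, and these cells are described here. Members were the wells of columns 17 to 24 on plates 3, 4 and 5 with at least 2500 genes above 0 TPM (transcript abundances corrected for length), without *Amn* and *Cubn* together, and with all 3 TSC genes at 0. They made up 48.2% of the kept wells of these columns (95% CI 42.8% to 53.5%), and 59, 57 and 54 of them lay on plates 3, 4 and 5, or 56.7 per plate. The kept wells with at least 1 of the 3 genes above 0 are called TSC-positive, 59, 51 and 56 on the same plates, and 17 more had both *Amn* and *Cubn*. In these columns 31 wells were under the minimum. In the whole series 1406 of 1931 wells were kept, and the members are 12.1% of them, while among the 1149 wells of RtL-embryoids 85.5% reached the minimum.

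RtL-embryoids are aggregates of 3 mouse ESC lines that model the rosette-to-lumen stage of the implanting embryo. Kermit ESCs, which carry GFP driven by Oct3/4, form the epiblast-like (Epi-like) cells, 5-Factor ESCs carry doxycycline (DOX)-inducible *Cdx2*, *Tfap2c*, *Eomes*, *Gata3* and *Ets2* for the ExE-like cells, and iGATA6 ESCs marked with mCherry carry inducible *Gata6* for the visceral endoderm-like (VE-like) cells. The structures were cultured with 2 µg/ml DOX, which was withdrawn for the last day, then picked by hand, pooled, dissociated and sorted as single cells for SMART-seq2. The comparison groups were the Epi wells (columns 1 to 8) with 22.3% of the 1406 kept cells, the VE wells (columns 9 to 16) with 22.4%, and 3 cultures in 2D, namely Kermit ESCs in 2i/LIF without DOX (10.1%), CD40-sorted iTSC induced from 5-Factor ESCs (10.03%) and iXEN cells induced from iGATA6 ESCs (10.03%). The iTSC were induced in TSC medium with FGF4 and heparin, and the iXEN cells in XEN cell medium. Both had 2 µg/ml DOX, withdrawn for the last day. All 3D cells came from 1 pool, so plates 3, 4 and 5 are technical splits of 1 sample, and each 2D culture is 1 sample on a plate of its own (7, 8 and 9), so that culture and plate cannot be told apart. No test between groups was possible, and differences are given as values with their spread over plates. The ExE gate was CD40 positive without GFP or mCherry, and the sorted protein levels were not analysed here.

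The ExE descends from the polar trophectoderm and holds the stem cells of the placenta. FGF signals keep these cells undifferentiated through receptors such as FGFR2, and CDX2, EOMES, ELF5 and TFAP2C form the core of their transcriptional network. In return the ExE signals to the epiblast, with BMP4 as its best known ligand. HAND1 drives differentiation to trophoblast giant cells, and PLET1 is a surface protein of the ExE and ectoplacental region.

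Levels are given in TP10k, the TPM of a cell scaled to a sum of 10000, which are per transcript length and can be set side by side between genes. Means include the cells at 0. A gene was called higher or lower when the log2 fold of the means, with 0.1 TP10k added to each, was at least 1 in size and had the same sign on all 3 plates, and when 10% or more of the cells in either group had the gene above 0. Shares have exact Clopper-Pearson intervals over cells, which cover counting error only, since each group comes from 1 sample. SMART-seq2 reads carry no molecular identifiers. Depth is unknown from TPM, and the number of genes above 0 was used in its place. It was 5108 in the median of the members (2526 to 8266) and 5784.5 in TSC-positive wells, and both were deeper on plate 3 (6277 and 6884) than on plate 5 (4079.5 and 4996.5). The median was 4823 in Epi and 5348 in VE wells, while 2D cells had 8537 to 9093.5 genes. To limit the effect of depth, members and TSC-positive wells with 4000 to 6000 genes were also compared, 99 members with 90 TSC-positive wells. Plates 3, 4 and 5 held 22, 47 and 30 of these members and 7, 42 and 41 of these TSC-positive wells. The medians were 4909 and 5216 genes, so this window changes the mix of plates and does not remove the depth difference.

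The values that chose the members lay as follows. The members with the fewest genes had 2526, 2936 and 2937, and the wells just under the minimum that met the other terms had 2314, 2279 and 1984. In the TSC-positive wells, the highest of the 3 TSC genes was 140.8 TPM in the median, and the lowest wells had 0.712, 0.909 and 0.986 TPM, so 3 wells were under 1 TPM and 32 were under 10 TPM. *Amn* was above 0 in 8 members and *Cubn* in 7, 15 members in all. The 5 genes given as markers of the members, *Pla2g7*, *Spp1*, *Gpx3*, *Ifitm1* and *Mdk*, and all other genes compared between members and TSC-positive wells come from the same cells that the rule split, so these differences are descriptions.

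The well columns matched the gates they stand for. *Tdgf1*, the NODAL co-receptor, was detected in 95.5% of Epi and 0.952% of VE wells, *Cubn* in 98.1% of VE wells, and *Cdx2* in 61.5% of ExE wells against 0.318% of Epi and 2.86% of VE wells. *Cd40*, which encodes the surface protein used for the sort, averaged 0.854 TP10k in members, 0.563 in TSC-positive wells, 0.0455 in Epi and 0.0918 in VE wells. It was detected in 42.5% of ExE, 6.05% of Epi and 12.1% of VE wells. The members' name as cells lacking TSC genes held for the 3 genes of the rule but not for the whole network. *Cdx2* was detected in 66.5% of members (95% CI 58.8% to 73.5%), *Esrrb* in 67.1%, *Gata3* in 54.1% and *Tfap2c* in 44.7%. The members are therefore called here by their rule and their leading gene, *Pla2g7*. Of the members, 3 carried several markers of Epi-like or VE-like cells, as did 2 TSC-positive wells. A single member on plate 3, the one with 2526 genes, stood apart with a correlation of 0.234 with the mean TSC-positive profile, where the next lowest member had 0.562. Its most abundant transcripts were *Snord110* and *Irf3*, and the largest change in a named gene's log2 fold on leaving it out was 0.30.

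*Pla2g7*, the gene with the largest difference of mean ln(TP10k + 1) between members and TSC-positive wells, spans 43568098 to 43612201 of chromosome 17 (GRCm38, as annotated in Gencode vM21). *Spp1* lies on chromosome 5 from 104435118 to 104441050, and *Gpx3* on chromosome 11 from 54902453 to 54910377. *Ifitm1* is found on chromosome 7 from 140967221 to 140969825 and *Mdk* on chromosome 2 from 91929805 to 91932297. The promoters of the first 3 are shown because these genes are among those that differed most from several of the other groups. They are windows of 300 bases around the RefSeq start (GRCm38.p6, plus strand), at chr17:43568201-43568500, chr5:104434861-104435160 and chr11:54902604-54902903, and capitals mark matches to the 5 motifs searched on both strands.
Pla2g7: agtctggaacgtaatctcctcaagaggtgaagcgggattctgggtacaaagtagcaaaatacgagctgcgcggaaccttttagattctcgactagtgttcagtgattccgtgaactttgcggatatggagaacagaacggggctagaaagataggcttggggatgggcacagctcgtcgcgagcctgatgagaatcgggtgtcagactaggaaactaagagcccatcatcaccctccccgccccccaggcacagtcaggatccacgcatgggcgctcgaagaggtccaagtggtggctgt
Spp1: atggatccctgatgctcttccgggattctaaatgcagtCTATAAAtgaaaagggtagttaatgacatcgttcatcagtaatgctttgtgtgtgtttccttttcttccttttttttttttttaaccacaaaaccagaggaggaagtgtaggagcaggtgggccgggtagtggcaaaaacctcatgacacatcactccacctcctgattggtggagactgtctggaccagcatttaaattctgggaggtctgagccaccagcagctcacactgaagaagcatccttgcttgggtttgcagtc
Gpx3: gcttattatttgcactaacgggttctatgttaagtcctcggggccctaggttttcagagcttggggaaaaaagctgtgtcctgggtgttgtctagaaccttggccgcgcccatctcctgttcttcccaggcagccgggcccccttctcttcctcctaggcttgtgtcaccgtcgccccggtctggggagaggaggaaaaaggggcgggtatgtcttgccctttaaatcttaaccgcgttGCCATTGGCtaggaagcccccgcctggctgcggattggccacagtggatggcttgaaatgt
The motifs were those of the inducible factors, namely GCCNNNGGC for TFAP2, AGATAA for GATA3, CNATAAA for CDX2, AGGTGTGA for T-box factors and CCGGAAGT for ETS factors. *Pla2g7* had none of them in this window, *Spp1* had 1 CDX2 match and *Gpx3* 1 TFAP2 match. A second RefSeq start of *Spp1* and the promoters of *Ifitm1*, *Nupr1*, *Bmp4* and *Bmp8b*, which are not shown, had 0 matches. Of 32841 RefSeq promoters of the same length, 10.9% held the CDX2 and 16.6% the TFAP2 motif, beside 11.2% for the GATA3 motif, 1.28% for T-box and 3.89% for ETS. The CDX2 motif shares letters with the TATA box, and the match in *Gpx3* contains an inverted CCAAT box.

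The 5 marker genes all had higher means in members than in TSC-positive wells. *Pla2g7*, which encodes a secreted phospholipase that degrades platelet-activating factor, averaged 11.8, 10.9 and 18.1 TP10k on plates 3, 4 and 5 of the members, and 5.15, 3.22 and 5.17 TP10k in TSC-positive wells. Single members ranged from 0 to 41.7 TP10k with a median of 11.9, and TSC-positive wells from 0 to 53.96 with a median of 0.190. The ranges thus overlapped in full, and the groups differed in how many cells were high. *Pla2g7* was detected in 93.5% of members (95% CI 88.7% to 96.7%) and in 52.4% of TSC-positive wells (95% CI 44.5% to 60.2%), a log2 fold of the means of 1.55, or 1.97 in cells with 4000 to 6000 genes. It was near 0 in the other compartments, at 0.0432 TP10k in Epi and 0.0817 TP10k in VE wells. The highest Epi well reached 2.00 TP10k, and 87.1% of members (95% CI 81.1% to 91.7%) were above it, beside 52 TSC-positive wells (31.3%, 95% CI 24.4% to 38.97%) and 4 iTSC.

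**Figure D1:**
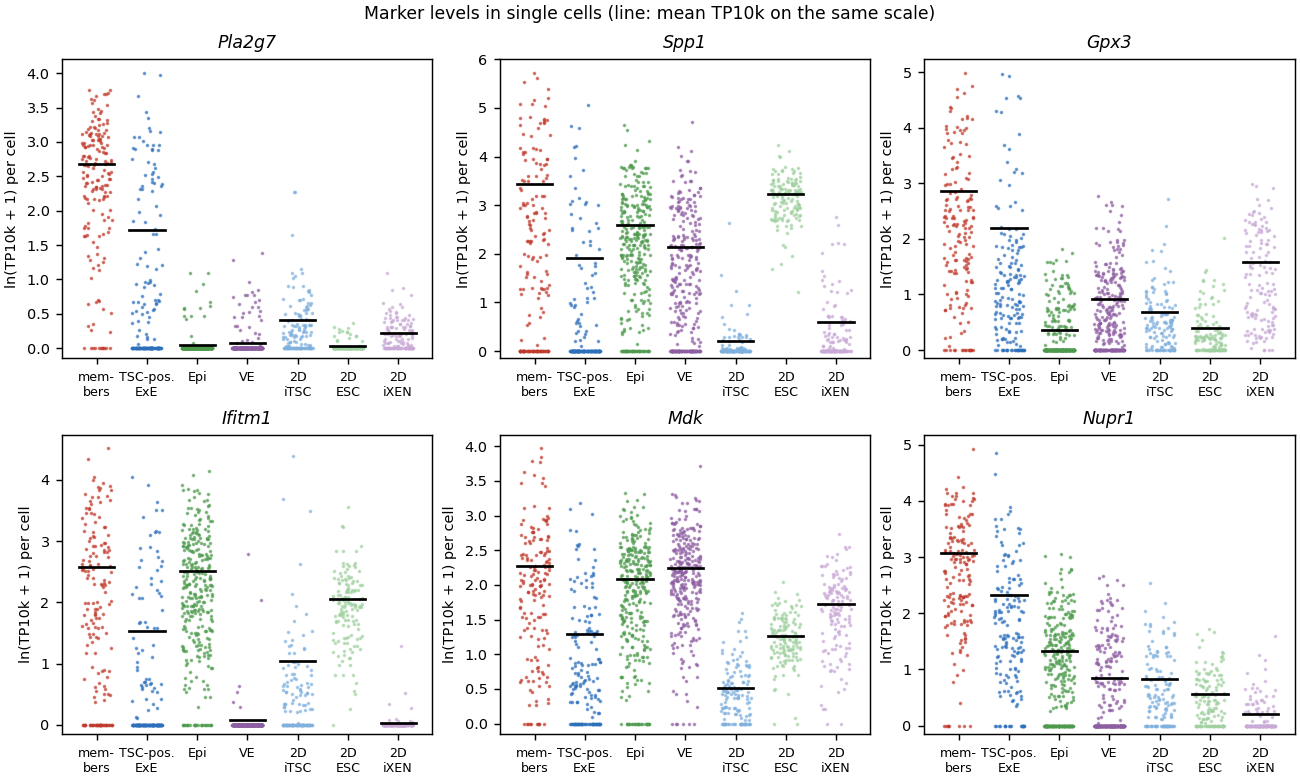
*Pla2g7*, *Spp1*, *Gpx3*, *Ifitm1*, *Mdk* and *Nupr1* in single cells of the 7 groups, as ln(TP10k + 1) on the vertical axis. Each point is a cell and the line is the mean of its group. *Pla2g7* is high in most members (mean 13.5 TP10k) and close to 0 in Epi and VE wells, whereas *Spp1*, *Ifitm1* and *Mdk* are also seen in other groups.

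*Spp1*, which encodes the secreted phosphoprotein osteopontin, was the most uneven of the markers. It averaged 26.7, 17.97 and 45.4 TP10k on the plates of the members and 3.67, 6.66 and 7.08 TP10k in TSC-positive wells. The median member had 6.27 TP10k and the highest 303.3, and 71.2% of members (95% CI 63.7% to 77.9%) had any, against 36.7% of TSC-positive wells. The plate means did not overlap, and the log2 fold was 2.35, or 3.10 within 4000 to 6000 genes. *Spp1* was also abundant in embryonic cells, with 24.1 TP10k in 2D ESCs and 12.4 in Epi wells, while iTSC had 0.229.

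*Gpx3*, an extracellular glutathione peroxidase, averaged 17.4, 17.3 and 15.1 TP10k in members and 9.14, 8.80 and 5.96 TP10k in TSC-positive wells. It was detected in 91.2% and 85.5% of them, and the log2 fold of 1.05 went to 0.94 without plate 5. Epi wells averaged 0.438 TP10k, VE wells 1.51 and iTSC 0.989. *Ifitm1*, a member of the interferon-induced transmembrane family, averaged 17.2, 9.97 and 9.09 TP10k in members and 4.83, 2.05 and 3.74 TP10k in TSC-positive wells, a log2 fold of 1.73. It stood at 11.3 TP10k in Epi wells, close to the members' 12.2, and at 0.0768 in VE wells. *Mdk*, the heparin-binding growth factor midkine, averaged 6.88, 6.94 and 12.6 TP10k in members and 2.21, 2.61 and 3.05 in TSC-positive wells, a log2 fold of 1.70. Its mean in members (8.71 TP10k) was like that of VE (8.42) and Epi wells (7.01) and above that of iTSC (0.676). All 5 markers were detected together in 83 members (48.8%) and in 27 TSC-positive wells (16.3%), and 63 members had 4 of them.

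Against TSC-positive wells, 1.51% of 10854 genes were called higher and 1.55% lower, and the median log2 fold of all these genes was 0.03. The 10 genes that differed most on ln(TP10k + 1) either way were named by rule. After *Pla2g7*, *Spp1*, *Ifitm1* and *Mdk*, the higher ones were *Nupr1*, *Gpx3*, *Pdpn*, *Gpc3*, *Smim14* and *Dhrs3*. *Nupr1*, a small nuclear protein induced by stress, averaged 20.4 TP10k in members and 9.21 in TSC-positive wells (log2 fold 1.14), and its plate means were 16.95 to 26.5 against 7.94 to 11.1. *Pdpn*, the membrane glycoprotein podoplanin, averaged 6.01 and 2.19 TP10k (log2 fold 1.42), and *Gpc3*, the heparan sulfate proteoglycan glypican 3, averaged 4.64 and 1.86 TP10k (log2 fold 1.28). *Dhrs3*, a reductase that returns retinal to retinol, averaged 4.01 and 0.976 TP10k (log2 fold 1.93).

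Among the 10 genes lower in members were junction and metabolic genes. *Cldn4*, a tight junction claudin, averaged 5.29 TP10k in members and 12.4 in TSC-positive wells (log2 fold -1.22), and was detected in 61.8% and 92.2% of them. The claudin *Cldn3* averaged 0.918 and 3.90 TP10k (log2 fold -1.97). The carbonic anhydrase *Car2* averaged 0.756 and 5.03 TP10k (log2 fold -2.58, and -3.18 without plate 3). Further genes were *Nup62cl* (log2 fold -1.98), the matrix protein gene *Tinagl1* (-2.07), *Fdps* of the isoprenoid pathway (-1.27) and the histone acetyltransferase *Hat1* (-1.26, and -0.94 without plate 5). *Igf2*, the fetal growth factor, averaged 5.15 and 8.43 TP10k and did not reach the 2-fold size (log2 fold -0.70). *Plet1* is also among the 10 and is 0 in members by the rule.

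The means of all 5 markers were lower in ExE wells with 2 or 3 of the TSC genes than in those with 0 or 1. This grouping uses the same 3 genes as the rule, so it is a description and not separate support. ExE wells with 0, 1, 2 and 3 of *Elf5*, *Hand1* and *Plet1* numbered 170, 62, 48 and 56, with medians of 5108, 5348, 5839 and 5826 genes above 0. *Pla2g7* averaged 13.5, 10.8, 1.19 and 0.580 TP10k in them, and *Spp1* 29.7, 14.2, 1.35 and 0.173 TP10k. For *Pla2g7*, the step between 1 and 2 genes was larger than that between 0 and 1. *Gpx3* averaged 16.6, 16.6, 4.17 and 1.64 TP10k, *Ifitm1* 12.2, 7.70, 2.21 and 0.288, *Mdk* 8.71, 4.99, 1.66 and 0.812, and *Nupr1* 20.4, 17.95, 5.47 and 2.75. Ligand genes of the ExE went the other way, with *Bmp4* at 0.157, 0.488, 1.27 and 3.81 TP10k. *Krt18* averaged 2.32, 3.58, 11.7 and 8.32 TP10k and *Cldn4* 5.29, 10.1, 13.5 and 14.1 TP10k, so cells with 1 TSC gene were near the members in keratin and nearer the other wells in claudin. Of the 62 cells with 1 gene, 32 had *Elf5*, 21 *Plet1* and 9 *Hand1*, and *Pla2g7* averaged 14.1, 7.59 and 6.46 TP10k in these.

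**Figure D2:**
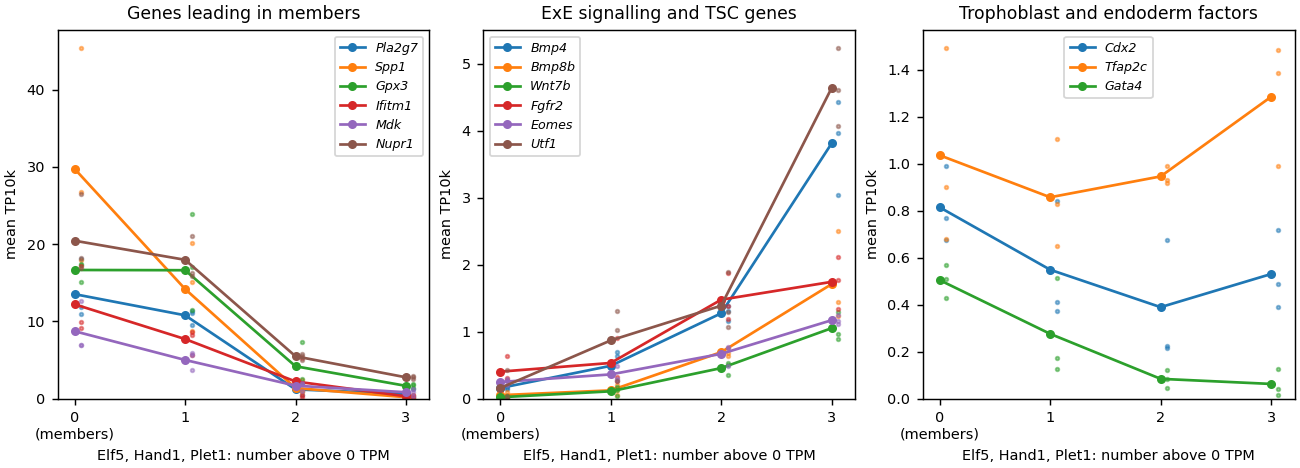
Mean level in TP10k (vertical axes) of markers, ExE genes and the endoderm factor *Gata4* in ExE wells grouped by how many of *Elf5*, *Hand1* and *Plet1* were above 0 (horizontal axes, 0 to 3). Large points are means over all cells and small offset points are plates 3, 4 and 5, and *Pla2g7* goes from 13.5 TP10k at 0 genes to 0.580 TP10k at 3 genes while *Bmp4* goes from 0.157 to 3.81 TP10k.

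In TSC-positive wells, *Pla2g7* was high mostly in cells without the ExE ligand genes, which the rule did not use. Among members with none of *Bmp4*, *Bmp8b* and *Wnt7b*, 120 were above the highest Epi well and 13 were not. Of the 30 members with 1 ligand gene 25 were above it, so these groups were close. Few members had more ligand genes, and 2 of 3 with 2 genes and 1 of 4 with all 3 were above it. In TSC-positive wells, 41 of 53 cells with no ligand gene were above it, 5 of 17 with 1, 4 of 38 with 2 and 2 of 58 with all 3. The grouping by TSC genes and that by ligand genes come from the same cells and are not independent.

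Of the 5 inducible factors, 0 were higher and 1 was lower in members than in TSC-positive wells, and reads do not tell the transgenes from the endogenous genes. *Cdx2*, the trophectoderm homeobox factor, averaged 0.988, 0.676 and 0.768 TP10k in members and 0.677, 0.341 and 0.446 TP10k in TSC-positive wells, a log2 fold of 0.62 that did not reach the 2-fold size. *Gata3* averaged 0.789 and 0.935 TP10k (log2 fold -0.22) and *Ets2* 0.415 and 0.422 (log2 fold -0.02). *Tfap2c* averaged 1.04 TP10k in members and 1.03 in TSC-positive wells but was detected in 44.7% and 77.1% of them, so fewer members had it at higher levels. *Eomes*, the T-box factor, was lower, at 0.254, 0.202 and 0.286 TP10k on the plates of the members and 0.694, 0.670 and 0.798 in TSC-positive wells (log2 fold -1.24).

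Of 18 TSC and ExE genes tested beside those of the rule, 0 were higher in members and 6 were lower, with a median log2 fold of -0.55. These were *Eomes*, *Fgfr2*, *Bmp4*, *Bmp8b*, *Tead4* and *Wnt7b*. *Fgfr2*, the receptor for the FGF signal that maintains TSCs, averaged 0.401 TP10k in members and 1.21 in TSC-positive wells (log2 fold -1.39). *Bmp4* averaged 0.152, 0.136 and 0.186 TP10k on the plates of the members and 1.39, 2.28 and 1.90 in TSC-positive wells (log2 fold -2.91), and was detected in 12.9% and 49.4% of them. Its relative *Bmp8b* averaged 0.0499 and 0.822 TP10k (log2 fold -2.62), and the WNT ligand *Wnt7b* 0.0191 and 0.526 TP10k (log2 fold -2.39). *Tead4*, a trophectoderm factor of the Hippo pathway, averaged 0.0444 and 0.246 TP10k (log2 fold -1.26). By contrast *Esrrb*, an orphan nuclear receptor of TSCs, averaged 0.464 and 0.522 TP10k (log2 fold -0.14), and *Id2*, an inhibitor of bHLH factors, 8.44 and 10.4 TP10k.

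Of 11 keratin and epithelial genes, 0 were higher and 4 were lower (median log2 fold -0.65), namely *Krt7* (-1.49), *Krt18* (-1.66), *Grhl3* (-1.32) and *Cldn4*. *Krt8*, the partner of *Krt18* in simple epithelial filaments, averaged 4.36 TP10k in members and 6.08 in TSC-positive wells and *Krt19* 2.21 and 3.28. The adhesion genes *Epcam* (4.25 and 3.37 TP10k) and *Cdh1* (1.79 and 1.57 TP10k) were at like levels. *Vim*, the intermediate filament of mesenchyme, averaged 2.14 and 1.09 TP10k (log2 fold 0.92), and of 7 mesenchyme genes 0 were called higher and 1 lower, the calcium-binding *S100a6* (log2 fold -1.02, and -0.83 without plate 3).

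No gene in the list of differentiating trophoblast was called higher in members than in TSC-positive wells. Of 8 tested, 0 were higher and 4 were lower (median log2 fold -1.10), among them *Gjb5* (-1.71), *Tfpi* (-1.92) and the imprinted *Phlda2* (-1.29, which was -0.88 without plate 4 or 5 and -2.88 without plate 3). The giant cell hormones *Prl3d1*, *Prl2c2* and *Prl3b1* and the placental protease *Ctsj* were above 0 in 0 of 170 members. Taken as 3 counts of the total, a count of 0 allows a share of up to 1.76% of cells with a value above 0, which covers counting error only and does not limit the share of cells that express a gene at a level below detection. *Pparg*, a nuclear receptor of labyrinth trophoblast, averaged 0.2496 TP10k in members and 0.0750 in TSC-positive wells and was not called, and the receptor *Flt1* averaged 0.0967 and 0.0234 TP10k. The summed level of 4 ectoplacental markers was 0.737 TP10k in members and 3.26 in TSC-positive wells, and that of 4 giant cell markers was 0.00220 TP10k in members.

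**Figure D3:**
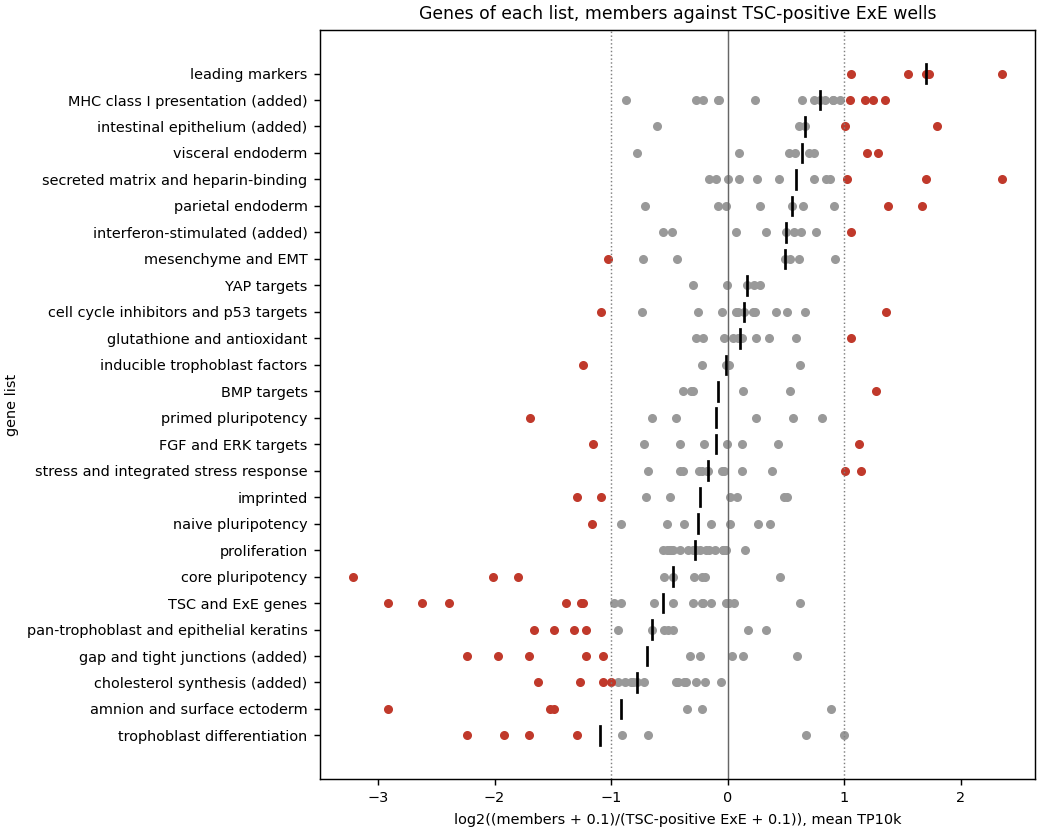
Log2 fold of members over TSC-positive wells (horizontal axis) for the tested genes of the larger lists (rows). Each point is a gene, red points passed the 2-fold size with the same sign on all 3 plates, and black bars are medians. Lists marked as added were written after values were seen. The medians lie at -0.55 for TSC and ExE genes and at 0.64 for visceral endoderm genes.

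No core pluripotency gene was called higher in members than in TSC-positive wells, and most were lower than in Epi wells. Of 9 core pluripotency genes tested against TSC-positive wells, 0 were higher and 3 were lower, *Utf1* (log2 fold -3.22, and -4.40 without plate 3), *Dppa4* (-1.80) and *Dppa5a* (-2.01), while *Dnmt3b*, a de novo DNA methyltransferase, was also lower (-1.69), as the only one of 6 genes of primed pluripotency. Of 8 naive pluripotency genes 0 were higher and 1 was lower, the F-box gene *Fbxo15* (-1.16). *Utf1*, a chromatin factor of pluripotent and ExE cells, was detected in 8.82% of members and in 63.9% of TSC-positive wells. *Pou5f1* averaged 0.243 TP10k in members, 0.300 in TSC-positive wells, 14.2 in Epi and 4.53 in VE wells. *Zfp42*, a zinc finger gene shared by ESCs and trophoblast, was detected in 85.3% of members, with 1.87 TP10k against 2.46 in TSC-positive and 4.47 in Epi wells. *Fgf4*, the epiblast ligand that TSCs depend on, was above 0 in 0 of 170 members.

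Against Epi wells, 8.39% of 10909 genes were higher and 4.87% were lower. The largest differences in the members' favour were in *Pla2g7*, *Cystm1*, *Gpx3*, *Sct* and *Nupr1*. *Sct*, which encodes the gut hormone secretin, averaged 16.6 TP10k in members, 10.4 in TSC-positive wells, 7.50 in iTSC and 0.0476 in Epi wells, so it was shared among trophoblast groups. *Dppa5a*, an RNA-binding protein of pluripotent cells, averaged 0.797 TP10k in members and 237.7 in Epi wells, and *Tdgf1* 0.0473 and 7.51 TP10k. Of 12 core pluripotency genes 0 were higher and 9 were lower than in Epi wells, and of 16 TSC and ExE genes 8 were higher and 2 were lower. The summed level of 7 Epi markers was 2.43 TP10k in members, 5.196 in TSC-positive and 40.6 in Epi wells.

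An endoderm transcription factor was above its level in TSC-positive wells, but effectors of endoderm were not at the level of VE wells. Of 8 visceral endoderm genes tested against TSC-positive wells 2 were higher and 0 lower (median log2 fold 0.64). *Gata4*, a zinc finger factor of endoderm, averaged 0.570, 0.508 and 0.427 TP10k on the plates of the members and 0.268, 0.0830 and 0.0805 in TSC-positive wells (log2 fold 1.28), beside 2.90 in VE wells. *Gata6* averaged 0.0484 TP10k in members, 0.0388 in TSC-positive and 0.818 in VE wells. *Sox17*, a defining factor of endoderm, was above 0 in 0 of 170 members, against 86.7% of VE wells. The summed level of the 7 VE markers was 0.573 to 1.01 TP10k on the plates of the members, 0.266 to 0.466 in TSC-positive and 21.6 to 23.4 in VE wells. *Amn* and *Cubn* are among them and had been limited by the rule.

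Against VE wells, 7.8% of 10888 genes were higher and 5.28% were lower. Of 13 visceral endoderm genes 0 were higher and 11 were lower, and of 9 parietal endoderm genes 1 was higher and 7 were lower. The higher one was *Fst*, the secreted activin antagonist follistatin, with 1.05 TP10k in members, 0.262 in TSC-positive and 0.268 in VE wells (log2 fold 1.67 against TSC-positive wells, and 2.29 without plate 5). *Plat*, tissue plasminogen activator, was also above TSC-positive wells (0.887 and 0.280 TP10k, log2 fold 1.38). The basement membrane gene *Sparc* averaged 1.71 TP10k in members and 59.9 in VE wells, *Col4a1* 0.129 and 16.1, and the endocytic adaptor *Dab2* 0.187 and 8.07.

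In the lists of other lineages no gene was called higher in members than in TSC-positive wells. Among mesoderm and primitive streak genes 1 was tested, among neural genes 2, fibroblast genes 1, immune genes 4 and germ cell genes 2, and 0 of these were higher or lower. Over all 10854 genes 1.51% were called higher and 1.55% lower, so a count of 0 among so few genes says little. Of 6 amnion and surface ectoderm genes 0 were higher and 3 were lower, *Wnt6* (log2 fold -1.52), *Krt7* and *Bmp4*. The mesoderm factor *Mesp1*, the immune adaptor *Tyrobp* and the basal keratins *Krt5* and *Krt14* were above 0 in 0 of 170 members. The summed level of the fibroblast markers was 0.00352 TP10k and that of the immune markers 0.0418 TP10k.

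**Figure D4:**
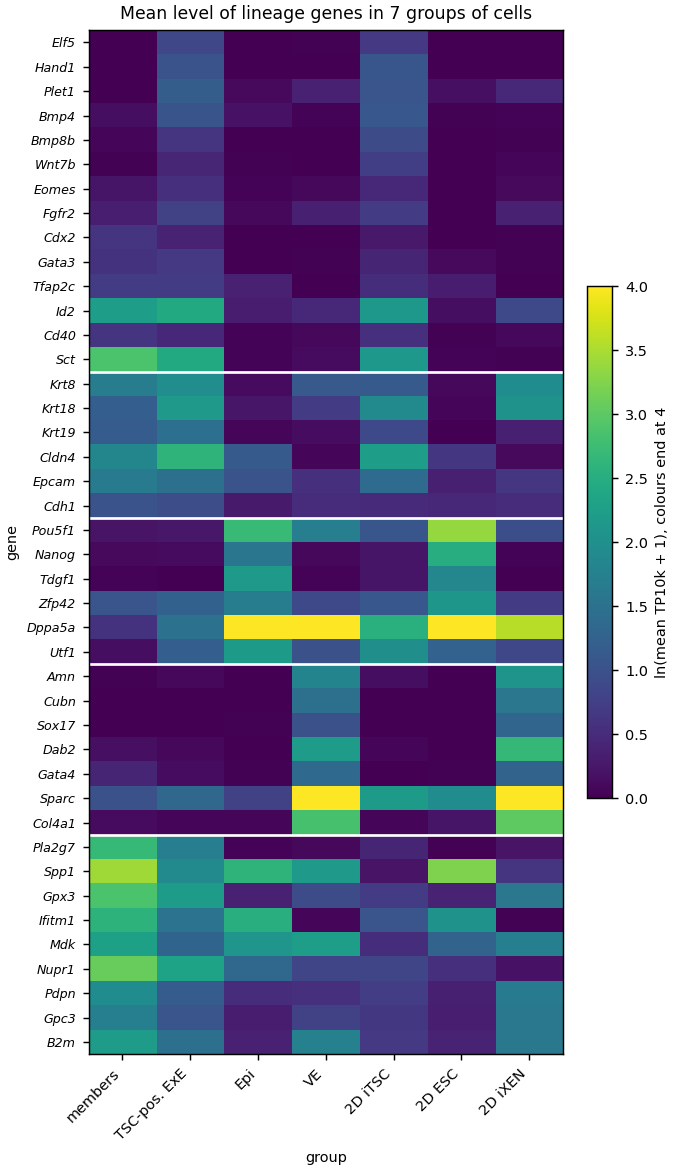
Mean levels of lineage genes (rows) in the 7 groups (columns), as ln of the mean TP10k + 1, with colours ending at 4. Members have *Pla2g7*, *Spp1*, *Gpx3* and *Nupr1* high and most of the pluripotency and endoderm genes shown low. For example, *Dppa5a* is at 0.797 TP10k beside 237.7 in Epi wells and *Sparc* at 1.71 beside 59.9 in VE wells.

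Of 6 BMP target genes 1 was higher, *Id3* (3.94 and 1.58 TP10k, log2 fold 1.27), and *Id1* averaged 1.42 and 0.952. Of 8 FGF and ERK targets 1 was higher and 1 was lower, the phosphatase *Dusp4* (log2 fold 1.12, and 0.75 without plate 4) and the ETS factor *Etv4* (-1.16, and -0.90 without plate 4). Of 13 genes of stress and the integrated stress response 2 were higher, *Nupr1* and *Ddit3* (log2 fold 1.01, and 0.89 without plate 4 or 5), at a median log2 fold of -0.17. The RNA of *Atf4*, whose protein activates both, averaged 1.90 and 2.51 TP10k. All 3 interferon-induced transmembrane genes were tested and 2 were higher, *Ifitm1* and *Ifitm3* (log2 fold 1.02, and 0.91 without plate 4), the latter being at 9.13 TP10k in Epi wells against 1.45 in members. Of 12 secreted matrix and heparin-binding genes 3 were higher (*Spp1*, *Mdk* and the protease inhibitor *Timp3*) and 0 lower, with a median of 0.59, and the first 2 of these are markers of the members. *Timp3* averaged 0.382 and 0.138 TP10k (log2 fold 1.02, 0.74 without plate 3 and 0.99 without plate 4). Of 10 glutathione and antioxidant genes 1 was higher, *Gpx3*.

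Proliferation genes were below the 2-fold size throughout, with 0 of 18 higher or lower and a median log2 fold of -0.28. Cells with few mitotic transcripts were counted separately. At most 1 of 9 mitotic genes was detected in 24 of 170 members (14.1%, 95% CI 9.26% to 20.3%) and in 7 TSC-positive wells (4.22%, 95% CI 1.71% to 8.50%). With 4000 to 6000 genes per cell the shares were 16.2% (95% CI 9.53% to 24.9%) and 5.56% (95% CI 1.83% to 12.5%). At least 6 of the 9 genes were detected in 64.1% of members and 82.5% of TSC-positive wells, so most members had transcripts of cycling cells. With 4000 to 6000 genes per cell, these shares were 62.6% (95% CI 52.3% to 72.1%) and 85.6% (95% CI 76.6% to 92.1%). The intervals of both classes cover counting error over cells of 1 pool and are no test between the groups. The 24 members with few mitotic genes had more *B2m* (15.4 TP10k against 6.57 in the members with at least 6), *Fst* (2.60 and 0.906) and *Sct* (25.7 and 14.1), while *Pla2g7* (17.3 and 13.1) and *Nupr1* (20.8 and 20.6) were closer. They also had fewer genes above 0, 4511.5 against 5370 in the median, and its part in these values was not tested. *Cdkn1a*, which encodes the cell cycle inhibitor p21, averaged 2.36 TP10k in members and 1.63 in TSC-positive wells (log2 fold 0.51). Of 13 cell cycle inhibitors and p53 targets 1 was higher and 1 was lower, the stress-induced *Sesn1* (log2 fold 1.35, and 0.34 without plate 4) and the imprinted inhibitor *Cdkn1c* (-1.08, with -0.31 without plate 4, -2.08 without plate 3 and -2.08 in cells with 4000 to 6000 genes). Of 8 imprinted genes 2 were lower, *Phlda2* and *Cdkn1c*, and of 5 YAP targets 0 were higher or lower, as was the case for the single gene of the early embryonic (2-cell-like) list.

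Compared with iTSC, 5.72% of 13064 genes were higher and 4.27% were lower in members. *Pla2g7* was detected in 67.4% of iTSC but at 0.512 TP10k, and *Nupr1* averaged 1.30 TP10k there. Of 19 TSC and ExE genes 1 was higher, *Cdx2* (0.814 and 0.313 TP10k, log2 fold 1.15), and 7 were lower, among them *Fgfr2*, *Bmp4* (log2 fold -3.01), *Bmp8b* (-3.41), *Wnt7b* (-3.33), *Tead4* and *Nr0b1*. *H19*, an imprinted non-coding RNA, averaged 0.0119 TP10k in members, 0.0817 in TSC-positive wells and 71.3 in iTSC, so this difference was shared by all ExE wells. Of 12 secreted matrix and heparin-binding genes 5 were higher and 1 was lower than in iTSC (median log2 fold 0.96), and of 12 core pluripotency genes 1 was higher and 7 were lower. Against 2D ESCs, 9.85% of 13305 genes were higher and 5.15% lower, and *Pou5f1* (0.243 and 27.8 TP10k) and *Nanog* (0.1002 and 11.2) were among the lowest. Against iXEN cells, 7.57% of 12464 genes were higher and 5.55% lower, with *Nupr1* at 0.220, *Pla2g7* at 0.244 and *Ifitm1* at 0.0309 TP10k in iXEN. Cells in 2D had more genes above 0, so their shares of cells with a gene are not on the same footing as those of 3D cells.

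Across 14211 genes, which are not independent replicates, members resembled the other ExE wells most. By Pearson correlation of ln(TP10k + 1) with mean profiles, 98.8% of members (95% CI 95.8% to 99.9%) were nearest to the TSC-positive wells, 2 to Epi wells and 0 to VE wells, with median correlations of 0.762, 0.711 and 0.707. The 2 exceptions were on plate 3. Members and TSC-positive wells share gate and plates, which this measure includes. Among 2D cultures, 160 members (94.1%, 95% CI 89.4% to 97.1%) were nearest to iTSC, 8 to iXEN and 2 to ESCs, and the median correlations lay close together (0.717, 0.693 and 0.694). Mean profiles gave 0.972 with TSC-positive wells, 0.908 with Epi, 0.902 with VE, 0.918 with iTSC and 0.887 with both ESCs and iXEN cells. TSC-positive wells had 0.959 with iTSC. ExE wells with 1, 2 and 3 TSC genes had correlations of 0.991, 0.958 and 0.934 with the members and 0.933, 0.960 and 0.958 with iTSC.

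**Figure D5:**
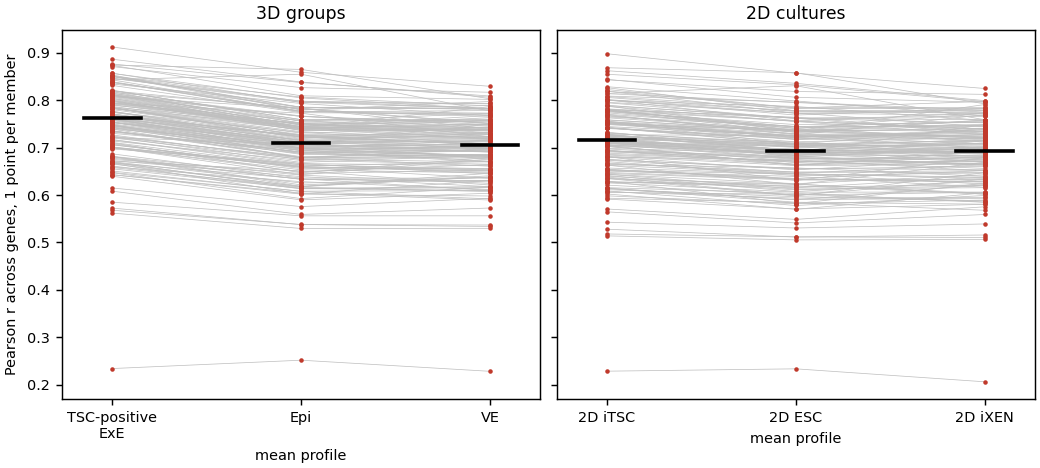
Pearson correlation of each member (points) with the mean profiles of the 3D groups and 2D cultures, over 14211 genes of ln(TP10k + 1). Black bars are medians, which are highest for the TSC-positive wells (0.762) in 3D and for iTSC (0.717) in 2D, and 1 member lies far below the others with 0.234 for the TSC-positive profile.

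Within the 170 members, the genes that varied most like *Pla2g7* were ranked by Pearson correlation of ln(TP10k + 1) over 7795 genes, as a description. Only 8 genes reached 0.5, and 0 were at or below -0.5. They were the adhesion gene *Cadm1* (0.641), the sodium pump subunit *Atp1b1* (0.585), the sorting receptor *Sorl1* (0.584), the lamin *Lmna* (0.552, with 0.197 on plate 4), *Tifa* (0.547), *Tspan1* (0.543), *Pdpn* (0.539) and the proteasome activator subunit *Psme2* (0.511). The most negative were the chaperone *Hsp90aa1* (-0.499), *Fhl1* (-0.467) and *Hat1* (-0.457), and *Krt18* had -0.431. The other markers went less with *Pla2g7*, with 0.367 for *Spp1*, 0.260 for *Ifitm1*, 0.254 for *Mdk* and 0.131 for *Gpx3*. The levels of the 5 markers were thus only loosely related to that of *Pla2g7* from cell to cell. The number of genes per cell had a correlation of -0.187 with *Pla2g7* over all members, and of -0.0618, -0.171 and 0.142 on plates 3, 4 and 5.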

How the data were processed

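Single cells of 1 pool of RtL-embryoids and of 3 2D cultures were measured by SMART-seq2. The authors pseudoaligned the reads with kallisto to Gencode vM16 (GRCm38), summed them with tximport, filtered mitochondrial, ribosomal and pseudogenes, and deposited TPM for 20999 genes. The labels also name bcl2fastq 2.20 and Seurat. TPM hold no read numbers, so the read minimum of the study was not applied and cells were not thinned.

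From the deposited TPM, wells with at least 2500 genes above 0 were kept and scaled to a sum of 10000. The assignment of well columns to gates was given with the choice of cells and was checked against markers, since the labels used here do not state it. Among kept cells 0 had identical values, and no doublet caller was run. With 1 sample per group there was no test and no p-value. Genes named in the text are those of 29 lists, the 5 markers, and by rule the 10 genes (TSC-positive wells) or 5 genes (other groups) with the largest difference of mean ln(TP10k + 1) in each direction, where 25% or more of the cells in either group had the gene and all 3 plates gave the same sign. Members and lists were chosen with earlier results of these data known, and 5 lists were added after values were seen. Scripts used pandas 2.3.3, numpy 2.4.6, matplotlib 3.10.9 and scipy 1.17.1 under Python 3.11.15 and were tested on simulated data. Alternatives were other gene minimums, filters, pseudocounts and scalings, a stricter or looser choice of members, Spearman correlation, and leaving out each plate. *Peg10*, *Rhox5* and the promoters of *Mdk* and *Wnt7b* were not analysed here. Some genes of the lists and of the ranking are not reported here, though counts and sums of lists include them.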

Additional observations from a re-analysis of the deposited data

How the results depend on the processing

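No paired analysis was possible because the groups were compared without a test and the plates are splits of 1 pool. Shares of genes are given here as percent of the genes tested in the comparison as reported. Leaving out each plate in turn left 55.5 to 58 members per plate, 47.9% to 48.5% of the kept ExE wells. It gave 1.15% to 2.68% of genes higher and 1.35% to 2.54% lower than in TSC-positive wells, and the highest shares came without plate 3 (2.68% and 2.54%), and the cause was not tested. Members nearest to the TSC-positive wells made up 98.2% to 100% (100% without plate 3), those nearest to iTSC 93.7% to 94.8%, and the correlation of mean profiles was 0.963 to 0.976. In cells with 4000 to 6000 genes, 2.47% of genes were higher than in TSC-positive wells, and 100% of members were nearest to these wells. This window was not run against iTSC, ESCs and iXEN cells, of which it held 6, 2 and 5 cells.

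The pseudocount moved the shares most. With 0.01 TP10k, the genes higher and lower were 5.75% and 4.41% against TSC-positive wells, 15.8% and 9.91% against Epi, 16.2% and 9.74% against VE, 11.8% and 12.1% against iTSC, 19.03% and 12.2% against ESCs, and 15.4% and 11.7% against iXEN cells. With 1 TP10k they were 0.120% and 0.203%, 1.164% and 0.788%, 0.891% and 1.26%, 0.7502% and 0.827%, 1.25% and 1.10%, and 0.810% and 1.34%, in the same order.

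Of the called differences of named genes, 0 were reversed among 9381 values under alternatives, and 1200 moved by more than the spread between plates. The count of reversals is largely set by the rule and says little about stability. A called gene had the same sign on every plate, so leaving out a plate could hardly reverse it. A change of pseudocount or of the filter on the share of cells cannot change a sign. Against TSC-positive wells, 20 of the 67 called named genes were under the 2-fold size without 1 of the plates. Leaving out the member that stood apart, an alternative chosen after the data were seen, left 99.4% of members nearest to the TSC-positive wells. Depth is unknown from TPM and limits what can be said of weakly detected genes.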

Other observations

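Further lists were written after values had been seen, and they are described here with that limit. Some genes of antigen presentation by MHC class I were higher in members. Of 17 tested against TSC-positive wells 4 were higher and 0 lower (median log2 fold 0.79), and of 17 against iTSC 10 were higher and 0 lower (median 1.44). *B2m*, the light chain of MHC class I, averaged 9.74, 7.97 and 6.61 TP10k on plates 3, 4 and 5 of the members and 5.49, 2.10 and 2.35 TP10k in TSC-positive wells (log2 fold 1.24), beside 0.957 in iTSC, 0.436 in Epi and 4.78 in VE wells. The heavy chains *H2-D1* (2.91 and 1.24 TP10k, log2 fold 1.17) and the immunoproteasome subunit *Psmb8* (0.583 and 0.168, log2 fold 1.35, and under the 2-fold size without plate 4) were higher than in TSC-positive wells as well. *H2-K1* (6.69 and 3.70, log2 fold 0.84) did not reach the 2-fold size. *H2-Q7* had a log2 fold of 1.05, which was 0.80 without plate 4, 0.73 without plate 5 and 1.91 without plate 3. The sum of *B2m*, *H2-K1*, *H2-D1* and *H2-Q7* was 18.7, 15.8, 3.90 and 5.05 TP10k in ExE wells with 0, 1, 2 and 3 of the TSC genes. Among 9 interferon-stimulated genes 1 was higher than in TSC-positive wells, the transcription factor *Irf1* (log2 fold 1.05, and 0.91 without plate 3), and 0 were lower.

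The list of intestinal epithelium, in which *Cdx2* has its adult role, had few genes to test. Of 5 tested 2 were higher than in TSC-positive wells, the proteolipid *Mal* (1.07 and 0.239 TP10k, log2 fold 1.79) and the tetraspanin *Tspan1* (log2 fold 1.01, 0.95 without plate 4 and 0.89 without plate 5), while *Cdx4*, *Fabp2* and *Hnf4g* were above 0 in 0 of 170 members. Of 17 genes of cholesterol synthesis 0 were higher and 4 were lower (median log2 fold -0.78), the enzymes *Mvd* (-1.62), *Fdps* (-1.27), *Idi1* (-1.07, and -0.80 without plate 5) and *Lss* (-0.87 without plate 4). Of 10 gap and tight junction genes 0 were higher and 5 were lower (median -0.70), among them *Cldn7* (-1.07, and -0.83 without plate 5).

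The Y-linked *Eif2s3y* was detected in 0.588% of members, 1.81% of TSC-positive wells, 36.3% of Epi and 2.86% of VE wells, and *Ddx3y* in 1.18%, 1.20%, 17.2% and 2.54% of them. *Kdm5d* and *Uty*, also Y-linked, were detected in 17.6% and 12.4% of members. At least 1 of the 4 genes was above 0 in 27.1% of members, 31.3% of TSC-positive, 55.4% of Epi and 27.9% of VE wells.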
